A study of Mus musculus with 21 samples.

Results

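The apolipoprotein L genes examined here are 7 mouse genes, Apol6, Apol7c, Apol7e, Apol8, Apol9a, Apol9b and Apol10b, taken by symbol from a gene table of 47069 Ensembl identifiers. They were chosen by their levels under a cytokine combination compared with either cytokine alone, so those values are given as a description. The table held 14 genes of the family in all; the other 7 were Apol7a, Apol7b, Apol7d, Apol10a, Apol11a, Apol11b and Apold1. Of the 7 chosen genes, 4 (Apol7c, Apol7e, Apol9a and Apol9b) passed the filter on low counts, and Apol6, Apol8 and Apol10b did not.

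The sequenced RNA came from macrophages derived from bone marrow, cells grown from the marrow of wild-type C57BL/6 mice aged 8 to 10 weeks in the presence of M-CSF, the growth factor that turns marrow precursors into macrophages. The groups were untreated cells (Ctrl_0h) and cells given IL4/IL13, TNF or IL4/IL13 with TNF, at 10 ng/ml, for 6 h (IL_6h, TNF_6h, IL_TNF_6h) or 24 h (IL_24h, TNF_24h, IL_TNF_24h). Each of the 7 groups had 3 libraries, 21 in all. The only untreated cells were those of 0 h, so every comparison with untreated cells shares the same 3 control libraries and time in culture cannot be told apart from treatment. The labels do not say whether replicates came from separate animals or cultures, so p-values measure the spread between these libraries, which may be technical.

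Apolipoprotein L proteins are mostly intracellular, amphipathic proteins that insert into lipid membranes. The best known of them in humans is a secreted serum factor that lyses trypanosomes. In the mouse the family has expanded as a tandem cluster, several of its genes are induced by interferon, Apol9a and Apol9b bind the membrane lipid phosphatidylethanolamine, and Apol7c has been described as a pore-forming protein at the phagosomes of dendritic cells. IL4 and IL13 act on macrophages through the transcription factor STAT6. TNF acts through NF-kB and, in macrophages, also leads to secretion of interferon beta, which the same cells answer through factors bound to interferon-stimulated response elements (ISRE).

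All 7 chosen genes lie in the cluster on chromosome 15. In RefSeq's annotation of GRCm38.p6, Apol6 lies at chr15:77045050-77057108, Apol9a at chr15:77403789-77411080, Apol7c at chr15:77524852-77533335 and Apol10b at chr15:77584154-77598542. Further along are Apol7e at chr15:77695706-77719288, Apol9b at chr15:77729047-77736382 and Apol8 at chr15:77745109-77757062. The cluster is interleaved, so genes of 1 pattern do not sit side by side: Apol9a lies on the other side of Apol7c from Apol9b.

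The promoters of Apol7c and Apol9a are shown because these genes carried the highest counts of the 2 patterns described below. Each runs from 250 bases before to 50 bases after the start site, 5′ to 3′ on the gene's strand, from RefSeq (GRCm38.p6), and both lie on the minus strand, at chr15:77533266-77533565 and chr15:77411031-77411330, the latter 1 of 2 entries for its gene. Capitals mark matches to an ISRE core, spelled GAAA, any 2 bases, GAAA, and to a STAT6-type site, spelled TTC, any 4 bases, GAA, searched on both strands. The ISRE cores lie on the opposite strand, so they are printed as their complement, TTTC, any 2 bases, TTTC.
Apol7c promoter: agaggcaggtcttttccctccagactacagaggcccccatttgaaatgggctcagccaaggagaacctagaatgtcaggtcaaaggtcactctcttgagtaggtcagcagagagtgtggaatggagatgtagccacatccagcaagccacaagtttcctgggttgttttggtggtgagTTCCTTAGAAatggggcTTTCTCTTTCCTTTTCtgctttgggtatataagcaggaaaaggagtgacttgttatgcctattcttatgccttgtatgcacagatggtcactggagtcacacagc
Apol9a promoter: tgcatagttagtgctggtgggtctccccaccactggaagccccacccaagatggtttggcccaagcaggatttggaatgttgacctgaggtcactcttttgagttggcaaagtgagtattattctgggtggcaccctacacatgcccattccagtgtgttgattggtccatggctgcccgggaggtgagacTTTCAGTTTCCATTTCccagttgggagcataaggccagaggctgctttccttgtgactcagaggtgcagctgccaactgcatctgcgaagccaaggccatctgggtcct

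The Apol7c promoter held 2 overlapping ISRE cores, from base -55 to base -40 relative to the start site, and 1 STAT6-type match, from -72 to -63. Apol7e and Apol9b also held 2 overlapping ISRE cores, Apol10b held 1, Apol8 held none, and Apol6 had no entry. Among 32851 RefSeq promoters of the same length, 3.44% held the ISRE core and 6.95% held the STAT6-type match. The matches are a description of these letters and not evidence of binding.

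The Apol9a and Apol9b promoters were identical over all 281 aligned bases of the pair of entries compared. The Apol7c and Apol7e promoters were 81.48% identical over 297 aligned columns. Next to each other, the stretches of the Apol7 genes that hold the matches differ where the STAT6-type letters stand, which is why they are set out here with Apol7b, a near copy of Apol7e.
Apol7c: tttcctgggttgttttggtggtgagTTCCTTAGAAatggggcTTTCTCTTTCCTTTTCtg
Apol7e: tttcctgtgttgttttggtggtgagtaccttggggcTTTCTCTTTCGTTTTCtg
Apol7b: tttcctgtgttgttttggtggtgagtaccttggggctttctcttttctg
The promoters of Apol7e and Apol7b held no STAT6-type match, and that of Apol7b held no ISRE core. No Apol7, Apol8, Apol9 or Apol10b promoter held the NF-kB consensus, which 4.51% of promoters held, or the interferon gamma-type GAS element, spelled TTC, any 3 bases, GAA, which 8.3% held.

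Libraries held 28063252 to 48654300 counts. Levels are CPM, a gene's counts scaled to a common library size with edgeR's TMM factors, and differences are log2 fold changes ± SE from edgeR's quasi-likelihood test, called at a Benjamini-Hochberg adjusted p below 0.05 over 15581 genes. All 7 genes of the macrophage list were present, with a summed level of 11567 to 39907 CPM per library, while neutrophil genes summed to at most 1.83 CPM, fibroblast genes to at most 8.75 CPM and endothelial genes to 60.7 to 462 CPM. Control replicate 2 listed 27761 genes with a count against 16996 to 20631 in the other libraries, and it held nearly all control counts of several Apol genes. The libraries also fell into 3 sets: Ddx3y stood at 41.8 to 50.9 CPM with Xist at no more than 0.145 CPM in the 6 libraries of IL_24h and IL_TNF_24h, while the other 15 had no Ddx3y and at least 162 CPM of Xist, and Ifi202b was at 0 in 15 libraries but at 30.3 to 64.2 CPM in the 6 given IL4/IL13, with or without TNF, for 6 h. Comparisons of TNF with untreated cells, of the TNF times, and of the combination with IL4/IL13 lie within a set. Those of IL4/IL13 with untreated cells and of the combination with TNF cross sets, so treatment and set cannot be told apart there. Comparisons of 6 h with 24 h under IL4/IL13 or the combination also cross sets, so time and set cannot be told apart in them.

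**Figure D1:**
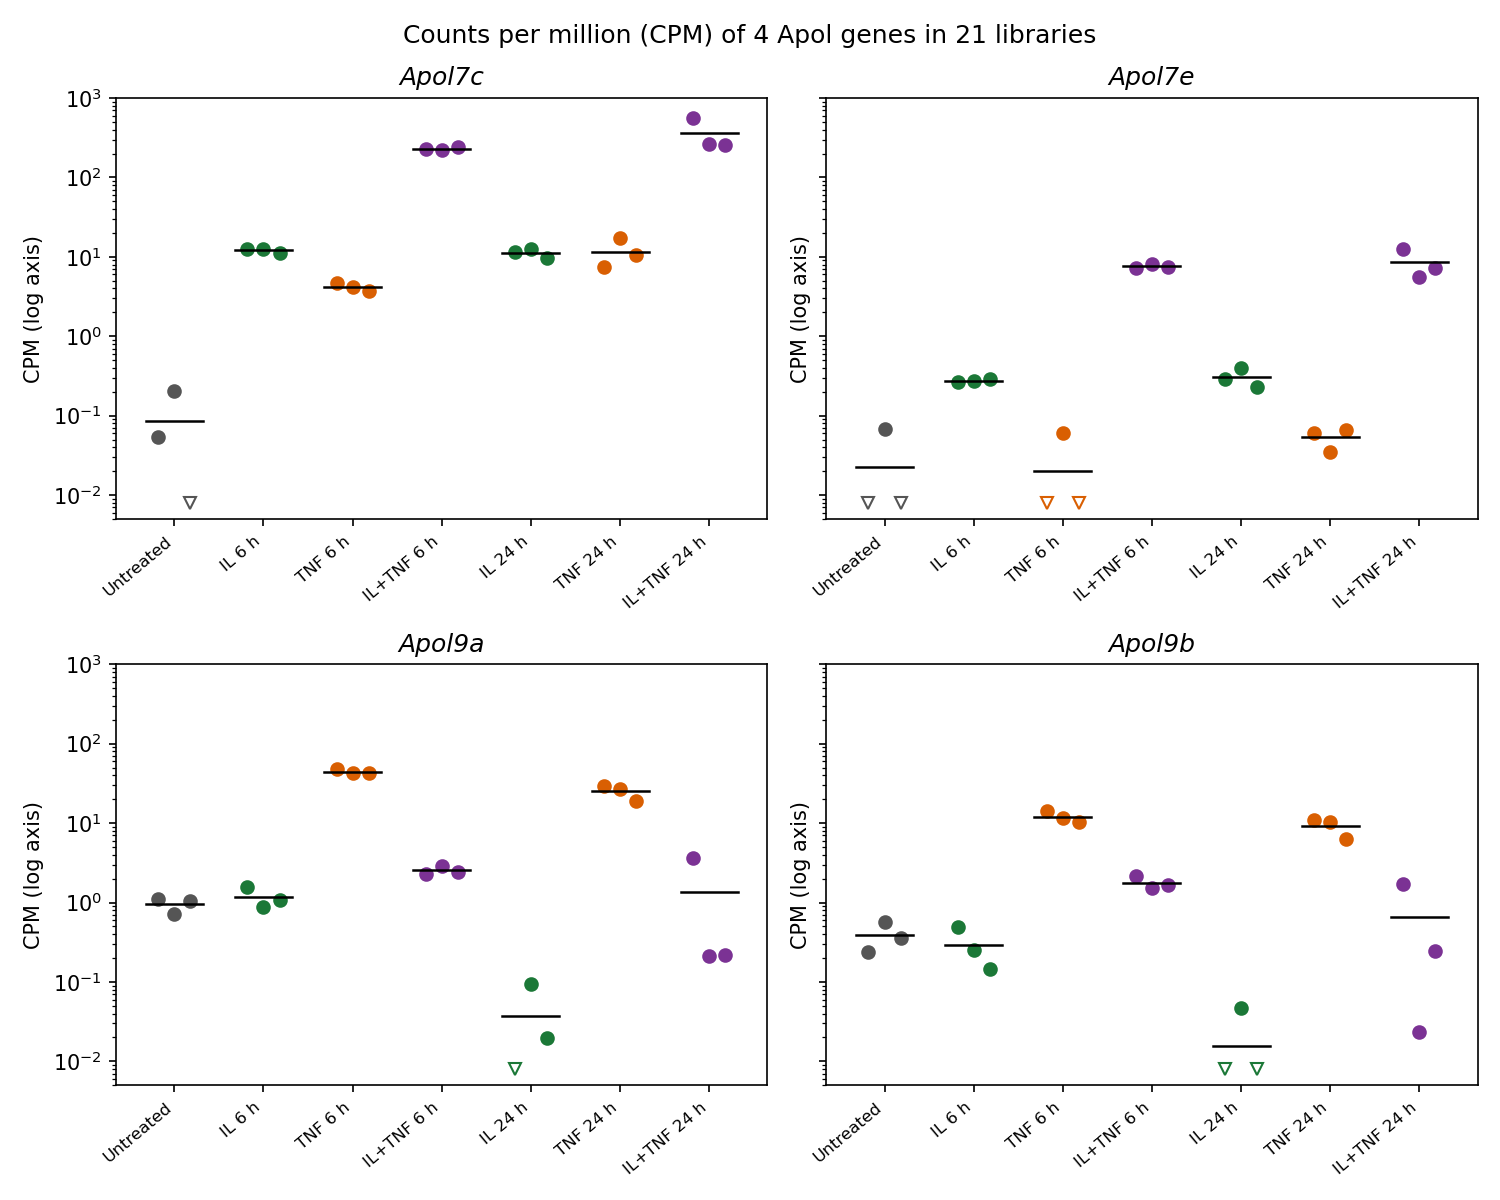
CPM of Apol7c, Apol7e, Apol9a and Apol9b in each of 21 libraries (points) with the group mean (line), on a log axis. Open triangles at the foot mark libraries with 0 counts, which have no place on a log axis. Apol7c and Apol7e stand highest in the 6 combination libraries, and Apol9a and Apol9b in the 6 TNF libraries.

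Apol7c was nearly silent in untreated macrophages, rose with each cytokine alone and was highest under both together. The 3 untreated libraries stood at 0.0534, 0.203 and 0 CPM, from 2, 6 and 0 counts. With IL4/IL13 the libraries stood at 12.7, 12.4 and 11.3 CPM at 6 h and 11.6, 12.7 and 9.59 CPM at 24 h. With TNF they stood at 4.69, 4.12 and 3.75 CPM at 6 h and 7.39, 17.2 and 10.4 CPM at 24 h. Every treated library was above every untreated one.

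The rise of Apol7c over untreated cells had a log2 fold change of 7.15 ± 0.52 for IL4/IL13 at 6 h (edgeR's quasi-likelihood test with Benjamini-Hochberg adjustment, adjusted p = 1.42e-09) and 7.04 ± 0.52 at 24 h (adjusted p = 2.12e-09). With TNF it was 5.62 ± 0.56 at 6 h (adjusted p = 1.96e-07) and 7.09 ± 0.53 at 24 h (adjusted p = 2.01e-09). The size of these values rests on 8 control counts: without control replicate 2, the log2 fold changes were 8.53 and 8.43 for IL4/IL13 and 7.004 and 8.48 for TNF, at 6 and 24 h in turn. The comparisons of IL4/IL13 with untreated cells cross sets of libraries, so treatment and set cannot be told apart in them. Between the TNF times Apol7c rose further, by a log2 fold change of 1.47 ± 0.31 (adjusted p = 0.00159), with all 3 libraries of 24 h above all 3 of 6 h.

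Under IL4/IL13 with TNF, Apol7c stood at 228, 223 and 241 CPM at 6 h and at 558, 262 and 258 CPM at 24 h. These 6 libraries lay far above all others, and replicate 1 of 24 h stood apart from the other 2 of its group. The combination was a log2 fold change of 4.25 ± 0.32 above IL4/IL13 and 5.79 ± 0.35 above TNF at 6 h, and 4.99 ± 0.33 and 4.95 ± 0.33 above them at 24 h. Because the combination chose these genes, these differences are given without a test. In order of mean level, IL_TNF_24h (359 ± 172 CPM, SD, n = 3) and IL_TNF_6h (231 ± 9.47) did not overlap. Their nearest libraries were at 258 and 241 CPM, and the groups lie in different sets, so time and set cannot be told apart. IL_6h (12.1 ± 0.740), TNF_24h (11.7 ± 5.0) and IL_24h (11.3 ± 1.58) overlapped one another, and TNF_6h (4.18 ± 0.476) lay below them.

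The combination can be set beside the single cytokines on 2 scales, and for Apol7c these gave opposite signs. Both scales use libraries of more than 1 set, so treatment and set cannot be told apart in them. On the scale of levels, the mean of 231 CPM at 6 h was 14.2 times the sum of the IL4/IL13 and TNF means, 16.3 CPM, and the mean of 359 CPM at 24 h was 15.7 times the sum of 22.9 CPM. On the scale of folds over untreated cells, multiplying the single-cytokine folds would give 593 CPM at 6 h and 1540 CPM at 24 h, above what was measured. The fitted interaction on the log2 scale was accordingly -1.36 ± 0.79 at 6 h and -2.10 ± 0.76 at 24 h, and both depend on the 8 control counts: without control replicate 2 they were -2.75 and -3.48.

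**Figure D2:**
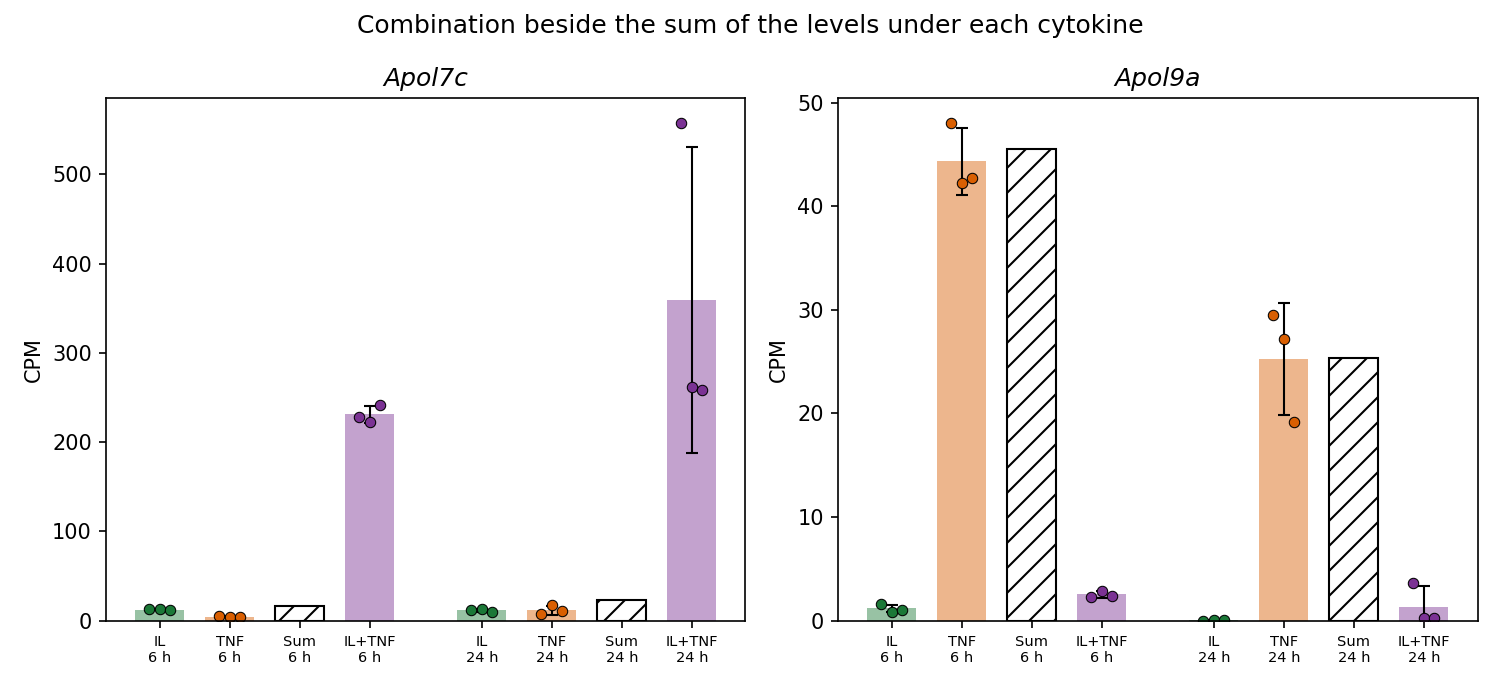
Mean CPM (bars) with SD (error bars) and each library (points) under IL4/IL13 (IL), TNF and both (IL+TNF) at 6 and 24 h, for Apol7c and Apol9a; hatched bars are the sum of the IL and TNF means. Apol7c under both cytokines is 14.2 and 15.7 times the sum, and Apol9a is 5.71% and 5.35% of its level under TNF.

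Markers of dendritic cells, the cell type in which Apol7c has been described, were also highest in sum under the combination. The summed level of the 8 genes of that list was 3.91 to 4.59 CPM in IL_6h, 3.97 to 5.65 in IL_24h and 3.99 to 4.50 in TNF_6h. It was 23.7 to 28.6 CPM in IL_TNF_6h, 34.6 to 38.3 in IL_TNF_24h and 15.3 to 17.9 in TNF_24h, and in untreated cells it was 1.34 to 17.4, the highest being control replicate 2. The other untreated libraries summed to 1.44 and 1.34 CPM, below every library of IL_6h, IL_24h and TNF_6h. Most of the sum came from Fscn1, an actin-bundling protein (19.2 CPM on average in IL_TNF_6h), Ccr7, a chemokine receptor (13.4 CPM in IL_TNF_24h), and Zbtb46, a transcription factor (11.97 CPM in IL_TNF_24h). Fscn1 averaged 13.1 CPM in TNF_24h and 8.66 CPM in IL_TNF_24h. Its log2 fold change with IL4/IL13 was -1.72 ± 0.71 at 6 h (edgeR adjusted p = 0.0395) and -2.30 ± 0.73 at 24 h (edgeR adjusted p = 0.00980). Its untreated libraries ran from 0.214 to 5.31 CPM, the highest being control replicate 2. IL_6h (0.442 to 0.718 CPM) and IL_24h (0.310 to 0.469 CPM) lay within that range, so no lowering is read from these values. The rest of the list, Xcr1, Clec9a, Flt3, Itgae and Cd209a, stayed at or under 1.31, 2.47, 3.25, 1.49 and 0.187 CPM in every library. Between 0 and 3 of the 8 genes were at 0 in a library. Clec9a averaged 0.109 CPM in untreated cells and 2.07 CPM in IL_TNF_24h. Between the same groups Xcr1 went from 0.228 to 0.203 CPM and Itgae from 0.884 to 0.535 CPM. The highest Flt3 value was in an untreated library. What these markers contribute to the Apol7c level was not tested, and in bulk RNA more cells that carry a transcript and more of it per cell cannot be told apart.

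Apol7e, a paralog of Apol7c, was also highest under the combination, and its counts were higher with IL4/IL13 than in untreated cells. It entered the fit of all libraries only through the combination libraries and failed the filter with the compared groups alone, so no p is given for its comparisons with untreated cells. Its untreated libraries held 0, 2 and 0 counts. With IL4/IL13 they stood at 0.265, 0.274 and 0.287 CPM at 6 h and 0.292, 0.398 and 0.233 CPM at 24 h, all above the untreated ones. With TNF the libraries stood at 0, 0.0597 and 0 CPM at 6 h and 0.0608, 0.0350 and 0.0662 CPM at 24 h, and overlapped them.

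As a ratio of pooled counts to untreated cells, Apol7e stood at 13.4 with IL4/IL13 at 6 h (95% counting interval 3.44 to 115) and 14.8 at 24 h (3.85 to 126). These IL4/IL13 comparisons cross sets of libraries. Both control counts were in replicate 2; without it, the level was at least 6.23-fold higher at 6 h and at least 6.86-fold higher at 24 h, taking 3 counts over the remaining control libraries as the floor. With TNF at 24 h the ratio was 2.66 with an interval of 0.436 to 28.0, so a sizeable change was not detectable at this depth.

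Under the combination Apol7e stood at 7.23, 8.13 and 7.53 CPM at 6 h and 12.7, 5.63 and 7.23 CPM at 24 h, and these 2 groups overlapped. The combination was 4.78 ± 0.44 above IL4/IL13 on the log2 scale at 6 h and 4.78 ± 0.44 at 24 h, described without a test. Its mean level was 25.8 times the sum of the single-cytokine means at 6 h and 23.5 times at 24 h. Against TNF the pooled ratio was 354 at 6 h (97.6 to 2924) and 152 at 24 h (64.8 to 469). The ratio at 6 h rests on 2 counts in TNF replicate 2, without which it was at least 150.2-fold. The fitted interaction of Apol7e on the log2 scale was 4.73 ± 1.601 at 6 h and 3.52 ± 1.48 at 24 h, opposite in sign to that of Apol7c and likewise described without a test. Both values rest on the 2 control counts: without control replicate 2 they were 1.86 and 0.65, and without TNF_6h replicate 2 the value at 6 h was 7.63.

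Apol9a and Apol9b had another pattern: TNF alone raised them, and with IL4/IL13 added to TNF they were far lower than with TNF alone. The latter comparison crosses sets of libraries, so treatment and set cannot be told apart in it. Apol9a stood at 1.12, 0.710 and 1.04 CPM in untreated cells and at 1.57, 0.869 and 1.06 CPM with IL4/IL13 for 6 h, which overlapped. With TNF it stood at 48.0, 42.2 and 42.7 CPM at 6 h and 29.5, 27.2 and 19.2 CPM at 24 h, above every other library. With IL4/IL13 for 24 h its libraries held 0, 4 and 1 counts, below all untreated ones.

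TNF raised Apol9a over untreated cells by a log2 fold change of 5.52 ± 0.67 at 6 h (edgeR adjusted p = 2.00e-06) and 4.71 ± 0.65 at 24 h (edgeR adjusted p = 8.25e-06). The 3 libraries of 24 h lay below the 3 of 6 h, with a log2 fold change of -0.81 ± 0.53 that did not pass the test (edgeR adjusted p = 0.301), although it passed without IL_TNF_24h replicate 1 (adjusted p = 0.00938), whose spread enters the shared estimate. IL4/IL13 gave 0.28 ± 0.68 at 6 h (edgeR adjusted p = 0.734). At 24 h Apol9a was lower with IL4/IL13, by a log2 fold change of -4.68 ± 1.13 (edgeR adjusted p = 0.00135), in a comparison that crosses sets. Of the 5 counts of IL_24h, 4 were in replicate 2, and without that library the pooled ratio to untreated cells was 0.0100 (95% counting interval 2.51e-04 to 0.0572).

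Apol9b stood at 0.240, 0.575 and 0.359 CPM in untreated cells, 0.486, 0.251 and 0.144 CPM in IL_6h, and 0, 0.0469 and 0 CPM in IL_24h. With TNF it stood at 14.3, 11.5 and 10.3 CPM at 6 h and 10.8, 10.3 and 6.22 CPM at 24 h, and these overlapped each other but no other group. Its 2 highest groups and its lowest group were those of Apol9a. TNF raised it by a log2 fold change of 4.95 ± 0.74 at 6 h (edgeR adjusted p = 2.55e-05) and 4.55 ± 0.74 at 24 h (edgeR adjusted p = 4.95e-05). IL4/IL13 gave -0.35 ± 0.81 at 6 h (edgeR adjusted p = 0.718), and at 24 h the pooled ratio to untreated cells was 0.0363 (0.00423 to 0.141), from 2 counts that were both in replicate 2. No p is given at 24 h, since with those 2 groups alone Apol9b failed the filter. Without that library Apol9b was at least 13.0-fold lower, in a comparison that crosses sets.

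With IL4/IL13 added to TNF, Apol9a stood at 2.31, 2.89 and 2.40 CPM at 6 h and at 3.63, 0.210 and 0.218 CPM at 24 h. All 6 libraries lay below all TNF libraries, and replicate 1 of 24 h stood above the other 2. The means were 5.71% and 5.35% of those under TNF, log2 fold changes of -4.13 ± 0.61 at 6 h and -4.27 ± 0.63 at 24 h; without IL_TNF_24h replicate 1 the latter was -6.88. Against IL4/IL13 alone the combination was higher by 1.11 ± 0.62 at 6 h and 5.11 ± 1.07 at 24 h, the latter against 5 counts, and it was 2.53 without IL_TNF_24h replicate 1 and 6.65 without IL_24h replicate 2.

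For Apol9b the combination stood at 2.16, 1.53 and 1.65 CPM at 6 h and 1.69, 0.0234 and 0.242 CPM at 24 h. These were 14.8% and 7.15% of the TNF means, log2 fold changes of -2.75 ± 0.64 and -3.85 ± 0.69, the latter -6.10 without IL_TNF_24h replicate 1. The interaction on the log2 scale was -4.40 ± 0.88 for Apol9a and -2.40 ± 1.03 for Apol9b at 6 h. At 24 h it was 0.41 ± 1.27 and 0.65 ± 1.32, within 1 SE of 0, and it turned negative without IL_TNF_24h replicate 1 (-2.25 and -1.65).

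Counted over the chosen genes, IL4/IL13 raised Apol7c alone at 6 h among those that passed the filter with the compared groups alone, and lowered 0. The background shares come from the fit of all libraries, where 32.8% of all genes tested were raised and 31.6% lowered. At 24 h IL4/IL13 raised Apol7c (background 31.7%) and lowered Apol9a (background 32.6%). The fit of all libraries called 2 at 6 h and 4 at 24 h, with Apol7e at both times and Apol9b at 24 h, which entered through other groups in which they were high and so support nothing. TNF raised 3 of the 4 at 6 h (background 18.8% raised, 20.5% lowered) and 3 at 24 h (20.9% raised, 24.4% lowered), in each case Apol7c, Apol9a and Apol9b. Between the TNF times 1 rose (background 12.7% raised, 10.9% lowered). With 4 genes tested, the counts add little to the single genes.

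The same 4 genes split under the combination. At 6 h all 3 combination libraries stood above all IL4/IL13 and TNF libraries for Apol7c and Apol7e and for 6.84% of all genes tested, below them for 0 of the 4 and 5.67% of all, and above IL4/IL13 but below TNF for Apol9a and Apol9b and 3.66% of all. At 24 h the genes above both were again Apol7c and Apol7e (6.94% of all), 0 were below both (6.14% of all), and Apol9a alone lay between (5.82% of all), since Apol9b overlapped IL4/IL13. The rule that named the genes looked for such a response, so nothing is read from these counts.

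The remaining chosen genes were close to undetected. Apol10b held 0 counts in untreated cells and in IL_24h, 6 in IL_6h, 7 in TNF_6h, 20 in TNF_24h and 22 in each combination group, pooled over 3 libraries. Its level in TNF_24h was at least 7.10-fold higher than in untreated cells, with the floor at 3 counts over the group; 13 of the 20 counts were in replicate 1, without which it was at least 3.89-fold higher, and TNF_24h lay above all untreated libraries. Apol6 held 17 counts in the untreated libraries, all in replicate 2, 8 in TNF_6h, all in replicate 3, and at most 1 in any other group. Apol8 held 27 counts in untreated cells, all in replicate 2, and at most 4 in any other group. Both control values came from the library with 27761 listed genes and neither gene supports a statement about treatment; Apol6 also overlaps Mb, the myoglobin gene, in the annotation.

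Interferon-stimulated genes, the class to which Apol9a and Apol9b are usually assigned, were measured as a fixed list of 25 that excludes the Apol genes. TNF raised all 25 at both times, with a median log2 fold change of 3.72 at 6 h and 4.59 at 24 h against a median of -0.04 and -0.09 over all genes, of which 18.8% and 20.9% were raised. Apol9a, at 5.52, stood above 24 of the 25 at 6 h and above 13 at 24 h. IL4/IL13 raised 11 and lowered 1 at 6 h, with a median of 0.84, where 32.8% of all genes were raised and 31.6% lowered. At 24 h it raised 4 and lowered 11, with a median of -1.14, where 31.7% were raised and 32.6% lowered. Both comparisons of IL4/IL13 with untreated cells cross sets of libraries. Between the TNF times 11 rose and 0 fell, with a median of 0.70, where 12.7% of all rose and 10.9% fell, while Apol9a and Apol9b did not pass in either direction.

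Adding IL4/IL13 to TNF lowered 14 of the 25 and raised 0 at 6 h, with a median of -1.09, where 27.5% of all genes tested were lowered and 29.7% raised. At 24 h it lowered 24 and raised 1, with a median of -2.43, where 27.1% were lowered and 29.2% raised. The 1 that rose was Gbp5, a guanylate-binding protein. At 6 h Apol9a, at -4.13, lay below all 25 and Apol9b, at -2.75, below 24. Apol9b stood between Ifit3, an antiviral RNA-binding protein, at -2.79 ± 0.64 and Isg15, a ubiquitin-like modifier, at -2.71. At 24 h 6 of the 25 lay below Apol9a, led by the chemokine Cxcl10 at -9.01. The ranking is a description, since SEs overlap along it and the comparison crosses sets of libraries.

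**Figure D3:**
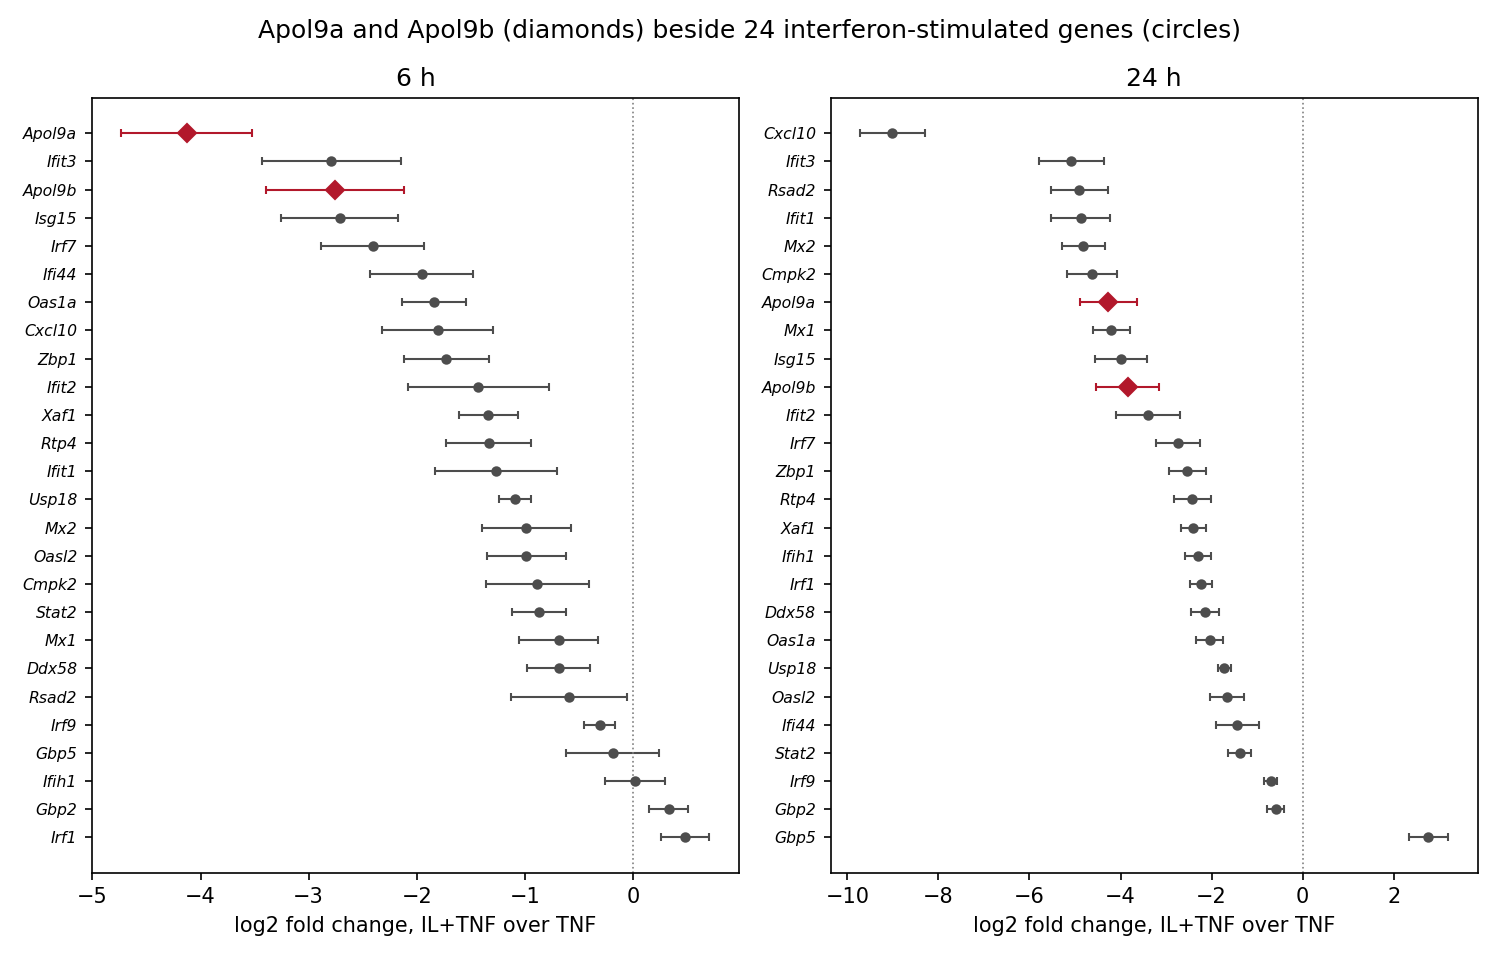
Log2 fold change of IL4/IL13 with TNF over TNF, with SE bars, for 24 of the 25 interferon-stimulated genes (circles) and Apol9a and Apol9b (diamonds) at 6 h and 24 h. At 6 h Apol9a is the lowest plotted at -4.13, and at 24 h it sits at -4.27 with 6 genes below it.

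The summed level of the 25 genes was highest in the TNF libraries and lowest in IL_24h, as was that of Apol9a, though it was higher at 24 h than at 6 h of TNF. It was 902 to 1201 CPM in untreated libraries, 1712 to 1843 in IL_6h, 10330 to 11280 in TNF_6h, 3981 to 4069 in IL_TNF_6h, 552 to 602 in IL_24h and 17051 to 20101 in TNF_24h. In IL_TNF_24h it was 4625 CPM in replicate 1 and 1619 and 1562 in the others, the same library in which Apol9a, Apol9b and Apol7c were high. Of 5 interferon genes listed, 4 were in the table and 1, Ifnb1, was tested. It averaged 0.0225 CPM in untreated cells, 0.517 in TNF_6h and 0.983 in TNF_24h and passed the test at both times. Its untreated level came from control replicate 2 alone (0.0676 CPM), so the size of the rise is uncertain. Ifnb1 averaged 0.231 CPM in IL_TNF_6h and 0.0188 in IL_TNF_24h, groups of other sets than TNF alone.

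Of 12 targets of IL4 and STAT6, 11 rose and 0 fell with IL4/IL13 at 6 h and 12 rose at 24 h, while TNF raised 3 and lowered 3 at 6 h and raised 5 and lowered 2 at 24 h. Of 12 NF-kB targets, TNF raised 12 at both times, and IL4/IL13 raised 11 and lowered 0 at 6 h and raised 5 and lowered 4 at 24 h. Over all genes, IL4/IL13 raised 32.8% at 6 h and 31.7% at 24 h and lowered 31.6% and 32.6%, and TNF raised 18.8% and 20.9% and lowered 20.5% and 24.4%. The counts of NF-kB targets under IL4/IL13 at 24 h and of STAT6 targets under TNF at 6 h are thus near the background. Apol7c, which rose in all 4 of these comparisons, is in neither list. Of these comparisons, those with IL4/IL13 cross sets of libraries, so treatment and set cannot be told apart in them.

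Among 10838 other genes, those most like each Apol gene over the 21 libraries were named by Pearson's r of log2 CPM, a description in which treatments and library sets are shared by all points. For Apol7c they included Prkcd, a protein kinase C (0.958), Jak2, a cytokine receptor kinase (0.954), Snn (0.950) and Smurf1, a ubiquitin ligase (0.947). Jak2 averaged 13.1 CPM in untreated cells, 107 in IL_6h, 59.6 in TNF_6h and 291 in IL_TNF_6h, a smaller range than that of Apol7c. At 24 h it averaged 66.6 CPM in IL_24h, 115 in TNF_24h and 186 in IL_TNF_24h. Under the combination Jak2 was thus lower at 24 h than at 6 h, unlike Apol7c. For Apol7e they were Aqp9, a water and glycerol channel (0.956), Car2, a carbonic anhydrase (0.928), Smurf1 (0.916), Hvcn1, a proton channel (0.913), and Stat5a (0.912). With Spearman's rho 0 of the 5 names remained for either gene, and over the 7 group means 2 did, so the names are not fixed.

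For Apol9a the genes most alike were Isg20, an exonuclease (0.982), Oas1g (0.980) and Oas1a (0.975), which make oligoadenylate, Ifit3 (0.978) and Isg15 (0.978). For Apol9b they were Isg15 (0.973), Ifit3 (0.968), Xaf1 (0.968), Ube2l6, the conjugating enzyme of Isg15 (0.967), and Slfn2 (0.966). Over the 7 group means 4 of 5 names remained for each, but with Spearman's rho 1 of 5 remained for Apol9a and 2 of 5 for Apol9b. Isg20 averaged 5.61 CPM untreated, 173 in TNF_6h, 10.5 in IL_TNF_6h, 0.950 in IL_24h, 167 in TNF_24h and 5.60 in IL_TNF_24h. Within the family r was 0.972 for Apol9a with Apol9b, 0.866 for Apol7c with Apol7e and -0.07 for Apol7c with Apol9a.

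The paralogs are similar enough that counts may be shared out among them. The coding sequences of Apol9a and Apol9b were 98.5% identical, and 52.54% of the 50-base windows of each occurred in another family transcript. For Apol7e the share was 74.99%, nearly all with Apol7b, and for Apol7c it was 12.28%, so Apol7c can mostly be told apart while the split of Apol9a from Apol9b and of Apol7e from Apol7b is uncertain. Apol7e also overlaps 3 annotated genes (Gm8233, Gm18911 and Gm36329).

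Even so, the ratios between paralogs differed between groups. Apol9b held 24.1 to 29.8 counts per 100 of Apol9a in the TNF_6h libraries and 52.9 to 93.8 in the IL_TNF_6h libraries, with no overlap, but 11.1 to 111 in IL_TNF_24h. TNF_6h lies in another set of libraries than the combination groups, so treatment and set cannot be told apart in these ratios. Apol7e held 2.09 to 2.55 counts per 100 of Apol7c in IL_6h, 3.12 to 3.64 in IL_TNF_6h, 2.43 to 3.14 in IL_24h and 2.15 to 2.80 in IL_TNF_24h. With TNF alone it held 0.517 per 100 at 6 h (95% counting interval 0.0624 to 1.88) and 0.477 at 24 h (0.155 to 1.12). The groups with TNF alone also lie in another set than those with IL4/IL13. Apol7b, not among the 7, followed Apol7e at 2.31, 2.43 and 2.49 CPM in IL_TNF_6h and 3.83, 1.59 and 1.62 CPM in IL_TNF_24h, or 31.6 and 27.3 counts per 100 of Apol7e. Reads were likely counted as single mates, since counts of 2 (30373) outnumbered counts of 1 (17808), which makes counting intervals too narrow.

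**Figure D4:**
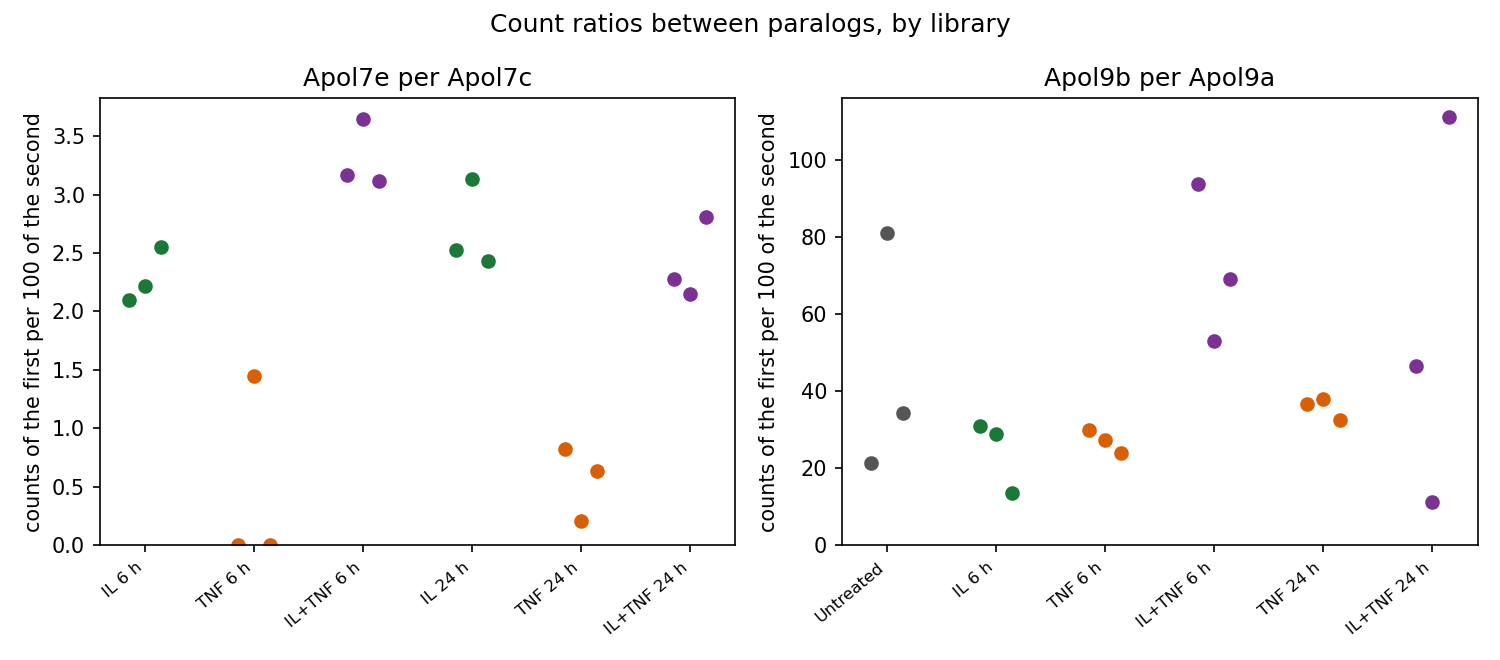
Counts of Apol7e per 100 of Apol7c and of Apol9b per 100 of Apol9a in each library (points), by group; groups with too few counts of the second gene are left out. Apol7e per Apol7c is lowest with TNF alone, and Apol9b per Apol9a is 24.1 to 29.8 in TNF_6h and 52.9 to 93.8 in IL_TNF_6h. Groups with TNF alone and groups with IL4/IL13 lie in different sets of libraries.

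Compared per length, with exon lengths from GENCODE M1, Apol7c under the combination was the most abundant of the 4, at 113 CPM per kb at 6 h and 176 at 24 h. Apol9a under TNF reached 28.7 CPM per kb at 6 h, Apol9b 7.55 and Apol7e, under the combination at 24 h, 3.82. Of 11 neighbouring genes 10 were tested. Their log2 fold changes lay between -1.19 and 0.11 for TNF at 6 h, between -0.68 and 0.41 for the combination over IL4/IL13 at 6 h and between -0.42 and 0.76 for it at 24 h. For the combination over TNF they ran from -1.39 to 2.01 at 6 h and from -1.32 to 2.13 at 24 h. Rbfox2, an RNA-binding splicing factor that lies among the Apol genes, had the highest of these values at 6 h (Foxred2 at 24 h), with group means of 2.61 CPM in untreated cells, 3.44 in IL_6h, 1.14 in TNF_6h and 4.59 in IL_TNF_6h. At 24 h its means were 2.74 in IL_24h, 1.43 in TNF_24h and 4.62 in IL_TNF_24h, so at both times its mean was highest under the combination, over a far smaller range than that of Apol7c.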

How the data were processed

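The values are gene counts, whole numbers per Ensembl gene and library as the authors deposited them. Named in the submitters' processing notes are the GRCm38 build, edgeR 3.28.1, TopHat2 2.0.12 and, from Subread 1.6.3, featureCounts. Which annotation, strand setting and handling of read pairs were used is not given in the sources used here. Groups came from the sample titles. Identifiers were matched to RefSeq symbols (32832 of 47069 matched). The chosen genes, the gene lists and the alternatives were picked with earlier results of these data known.

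Counts were filtered with filterByExpr by group (15581 genes left, 99.9% of counts), scaled with TMM and fitted in edgeR 4.0.16 (R 4.3.3) over all 21 libraries with 1 term per group. The quasi-likelihood test was used with Benjamini-Hochberg adjustment at 0.05, only for comparisons that the choice of genes did not use. The code was tested on simulated data. Ratios of pooled counts have exact binomial 95% intervals that cover counting error only, and a group at 0 was set to 3 counts. Genes named as alike are the 5 with the highest Pearson r of log2 CPM (prior count 2), among named genes with a mean of at least 1 CPM, for each member reaching 5 CPM in a group; neighbours are the 5 nearest on each side and those between. Of the genes these rules named and of the list plotted, 1 each is not reported here. Transcripts came from GENCODE M1 (another build, so without coordinates) and promoters from RefSeq. DESeq2 1.42.0, other filters, size factors, a replicate block, fits of the compared groups and omission of libraries were alternatives.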

Additional observations from a re-analysis of the deposited data

Results flagged for a closer look

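Apol7c rose between 6 and 24 h of TNF, by a log2 fold change of 1.47 ± 0.31 (edgeR's quasi-likelihood test, adjusted p = 0.00159), a difference between the 2 times of TNF. No untreated group of 24 h is among the samples, so TNF and time in culture cannot be told apart in it. All 3 libraries of 24 h (7.39, 17.2 and 10.4 CPM) stood above all 3 of 6 h (4.69, 4.12 and 3.75 CPM). The change was 1.09 without TNF_24h replicate 2 and 1.72 without TNF_24h replicate 1.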

How the results depend on the processing

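Directions of the tested changes that passed held under every alternative run, with other size factors, other filters, DESeq2, a replicate block, the compared groups alone, and each library left out. With the compared groups alone, IL4/IL13 changed 1 chosen gene at 6 h and 2 at 24 h, because Apol7e and, at 24 h, Apol9b then failed the filter. Between the TNF times 2 genes (Apol7c and Apol9a) passed with no filter, with the compared groups alone and with 3 libraries left out together (Ctrl_0h replicate 2, IL_TNF_24h replicate 1 and TNF_6h replicate 3); leaving out single libraries gave 1 to 2. For TNF at 24 h the 3 genes were the same in 7 of 28 alternatives. In 20 Apol10b joined them, and in 1 Apol7e. With a library left out, Apol10b passed the filter only through TNF_24h replicate 1 (13 counts) and IL_TNF_24h replicate 1 (16 counts). Leaving out 1 of these 2 brought the count back to 3. Apol7e was called with the 3 libraries left out, among them Ctrl_0h replicate 2, which held both its control counts. These added calls support nothing.

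Leaving out single libraries moved the Apol7c interaction from -2.75 to -0.84 at 6 h and from -3.48 to -1.58 at 24 h, and the Apol9a interaction at 24 h from -2.25 to 1.88. The combination at 24 h against IL4/IL13 ranged from 4.53 to 5.18 for Apol7c and from 2.53 to 6.65 for Apol9a, and against TNF from 4.47 to 5.34 for Apol7c and from -6.88 to -3.74 for Apol9a. With the 3 libraries left out together, the interactions were -2.82 and -3.96 for Apol7c and -2.03 for Apol9a at 24 h, and the combination at 24 h was 4.53 and 2.53 over IL4/IL13 and 4.48 and -6.87 over TNF, for Apol7c and Apol9a in turn.

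Same-numbered libraries did not deviate together, with a median r of 0.00665 over 63 pairs, 6 above 0.1. Pairs of different numbers had a median r of -0.00324 over 126 pairs, 9 above 0.1. With 3 libraries a group these values cannot exclude pairing. With the replicate block Apol7c rose by 7.16 with IL4/IL13 at 6 h, and the block changed no call. Depth limits the chosen genes at a few counts: Apol6, Apol8, Apol10b, and the untreated levels of Apol7c and Apol7e.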
